A study of Mus musculus with 10 samples.

Results

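The levels of 10 genes of the piRNA pathway were followed across stem cells, PGC-like cells and PGCs. They comprised the PIWI genes Piwil1, Piwil2 and Piwil4, the piRNA factors Mael, Mov10l1 and Asz1, and the Tudor domain genes Tdrd1, Tdrd5, Tdrd9 and Tdrkh. The members were taken by symbol, and all 10 were found among the 36066 genes of the expression table. RNA-seq was available for 10 libraries of strain C57BL6, 2 in each of 5 groups. The groups were a female embryonic stem cell line (ESC), a parthenogenetic embryonic stem cell line (pESC), derived from activated oocytes without a sperm genome, PGC-like cells induced from either line (ESC-PGCLC and pESC-PGCLC), and primordial germ cells (PGC). The PGCLCs were made by 4 days of induction with BMP4 at 500 ng/ml, together with LIF, SCF and EGF, after an epiblast-like stage, and by the methods of the study they were sorted for SSEA1 and CD61. By the study's methods PGCs were sorted from female embryos with the same surface markers or with SSEA1 alone. The labels of these libraries give no embryonic day. The study describes PGCs of an earlier and a later embryonic stage, so the stage behind the PGC values is not known here. The study describes its replicates in general as biological, and the labels do not say which cultures, embryos or inductions they came from, so p-values measure the spread between these libraries alone.

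piRNAs are small RNAs of the germline that guide PIWI proteins, a branch of the Argonaute family, to transcripts of transposons. In fetal male germ cells of the mouse, PIWIL2 cleaves transposon transcripts in the cytoplasm and PIWIL4 directs DNA methylation to transposon copies in the nucleus. Tudor domain proteins bind methylated arginines of PIWI proteins and hold the pathway together in perinuclear granules, the nuage, beside mitochondria.

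Each value is a TPM, a read count divided by gene length and set to a common total per library. Levels of different genes can thus be compared, as far as the 1 length taken per gene fits its transcripts. Reads recovered from the TPM ranged from 6779838 to 18572901 per library. Pluripotency markers were present in the stem cells, where 7 of 7 had a group mean of at least 1 TPM, and Nanog averaged 572 TPM in ESCs and 408 TPM in pESCs. The list of early PGC markers summed to 391 to 909 TPM in stem cell libraries, 4692 to 5801 TPM in PGCLC libraries and 3318 to 4323 TPM in PGC libraries. Most of each sum was Dppa3, at means of 366 TPM in ESCs, 791 TPM in pESCs, 5654 TPM in ESC-PGCLCs, 4743 TPM in pESC-PGCLCs and 3667 TPM in PGCs. Prdm14 stayed within a narrow range, at 17.6, 12.95, 17.4, 14.6 and 20.8 TPM in the same order. The rest of the list had higher means in PGCLCs and PGCs than in stem cells. Of the 7 pluripotency markers, 5 had a mean of at least 1 TPM in ESC-PGCLCs, 6 in pESC-PGCLCs and 6 in PGCs. Pou5f1, a pluripotency factor that PGCs are known to keep, averaged 0.187 TPM in ESC-PGCLCs, 2.93 TPM in pESC-PGCLCs and 2.38 TPM in PGCs, below the 21.2 TPM of ESCs and the 7.64 TPM of pESCs. Sox2 averaged 38.7 TPM in ESCs and 49.1 TPM in pESCs, and was higher in ESC-PGCLCs (103.9 TPM) and PGCs (79.2 TPM) but lower in pESC-PGCLCs (26.8 TPM). Later germ cell markers, among them Dazl, Ddx4, Sycp3 and Stra8, were all present in the PGCLC libraries, at sums of 2511 to 4073 TPM. Markers of gonadal somatic cells were also present there and in PGCs, and 5 of 8 had a mean of at least 1 TPM in ESC-PGCLCs, 7 of 8 in pESC-PGCLCs and 8 of 8 in PGCs. The study also aggregated PGCLCs with gonadal somatic cells, and the labels do not say whether that step preceded these libraries. Values of the PGCLC groups may thus include RNA of other cells. The PGC libraries held these somatic markers as well, so their values may also include RNA of other cells.

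The promoters of the members are shown because most of these genes moved together between the groups. The 250 bases before each RefSeq transcription start (GRCm38.p6) were searched on both strands for CACGTG, the E-box bound by MYC, MAX and MGA, and for GGCGGGAA, letters of E2F type, and no match of one word overlapped the other. Windows were listed for 9 of the 10 members, 12 windows in all. CACGTG was present in 6 of these 12 windows (50%), against 6.02% of 32851 windows of all genes. These 6 windows belonged to 5 genes, Piwil1, Mael, Mov10l1, Tdrd1 and Tdrd9, and 2 of them are overlapping windows of Tdrd1 that hold the same site. GGCGGGAA was in 0 of 12 windows, against 1.86% of all windows. The median number of CG pairs was 15.5 per member window, against 6 over all windows. Among 31 windows of other pathway genes, described below, CACGTG was in 7 (22.6%) and the median number of CG pairs was 15. The word itself holds a CG pair, and the windows of all genes were not matched for CG pairs. The sequences below run 5′ to 3′ toward the start site, with CACGTG in capitals, and Asz1 is shown for comparison as a member without the word.
Mael (chr1:166238745-166238994, minus strand): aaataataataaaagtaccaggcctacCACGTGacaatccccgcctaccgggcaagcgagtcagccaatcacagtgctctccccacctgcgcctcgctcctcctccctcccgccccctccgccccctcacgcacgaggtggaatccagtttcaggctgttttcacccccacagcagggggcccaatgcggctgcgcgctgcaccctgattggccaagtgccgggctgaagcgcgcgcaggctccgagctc
Mov10l1 (chr15:88982744-88982993, plus strand): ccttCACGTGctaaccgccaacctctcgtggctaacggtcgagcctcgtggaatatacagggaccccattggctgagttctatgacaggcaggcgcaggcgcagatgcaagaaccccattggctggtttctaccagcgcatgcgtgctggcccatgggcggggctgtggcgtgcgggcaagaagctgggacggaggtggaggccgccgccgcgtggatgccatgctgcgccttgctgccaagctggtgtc
Tdrd1 (chr19:56825959-56826208, plus strand): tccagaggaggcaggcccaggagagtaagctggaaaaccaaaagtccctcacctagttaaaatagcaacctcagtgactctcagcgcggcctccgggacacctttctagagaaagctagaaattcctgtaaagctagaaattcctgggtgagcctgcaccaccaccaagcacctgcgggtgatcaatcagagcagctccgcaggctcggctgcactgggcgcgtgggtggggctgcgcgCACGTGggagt
Tdrd9 (chr12:111971309-111971558, plus strand): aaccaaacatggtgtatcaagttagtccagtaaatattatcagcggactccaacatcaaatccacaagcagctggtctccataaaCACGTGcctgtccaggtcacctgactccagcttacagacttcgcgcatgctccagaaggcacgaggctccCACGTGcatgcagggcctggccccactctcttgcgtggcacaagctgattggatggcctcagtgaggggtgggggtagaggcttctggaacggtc
Piwil1 (chr5:128735996-128736245, plus strand): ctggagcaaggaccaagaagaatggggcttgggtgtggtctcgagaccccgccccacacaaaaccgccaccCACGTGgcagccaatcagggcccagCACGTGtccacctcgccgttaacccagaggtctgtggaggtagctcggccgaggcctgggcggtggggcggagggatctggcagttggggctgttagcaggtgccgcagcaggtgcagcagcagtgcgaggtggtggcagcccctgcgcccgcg
Asz1 (chr6:18109062-18109311, minus strand): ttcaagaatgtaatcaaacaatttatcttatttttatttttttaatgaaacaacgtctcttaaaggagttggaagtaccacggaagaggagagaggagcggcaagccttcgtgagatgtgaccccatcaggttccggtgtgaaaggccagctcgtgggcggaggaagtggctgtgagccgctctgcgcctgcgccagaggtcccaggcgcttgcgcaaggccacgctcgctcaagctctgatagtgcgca
In Tdrd1 the word began 11 bases before the start of this window's transcript, and in Mael and Mov10l1 it began 223 and 246 bases before it. Piwil1 held it at 179 and 154 bases and Tdrd9 at 165 and 95 bases before the start. Piwil4, Asz1, Tdrd5 and Tdrkh had no match in the windows searched. A match describes the letters alone, and no binding was measured here. The word did not separate the members by level, since it stood before Mael, which was the most abundant member in every group, and before Piwil1, which stayed at or below 0.265 TPM in all libraries.

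In stem cells the members were near the limit of detection. Their 10 values summed to 2.62 and 2.74 TPM in the ESC libraries and to 3.12 and 3.29 TPM in the pESC libraries, and each gene had between 0 and 27 reads per library. The sums were 254 and 266 TPM in ESC-PGCLCs, 331 TPM in either pESC-PGCLC library, and 361 and 382 TPM in PGCs. Every member except Piwil1 was higher in each of the 6 PGCLC and PGC libraries than in any of the 4 stem cell libraries, 9 of 10 members beside 27.3% of all tested genes. In bulk RNA, fewer cells of a type and less RNA per cell cannot be told apart.

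**Figure D1:**
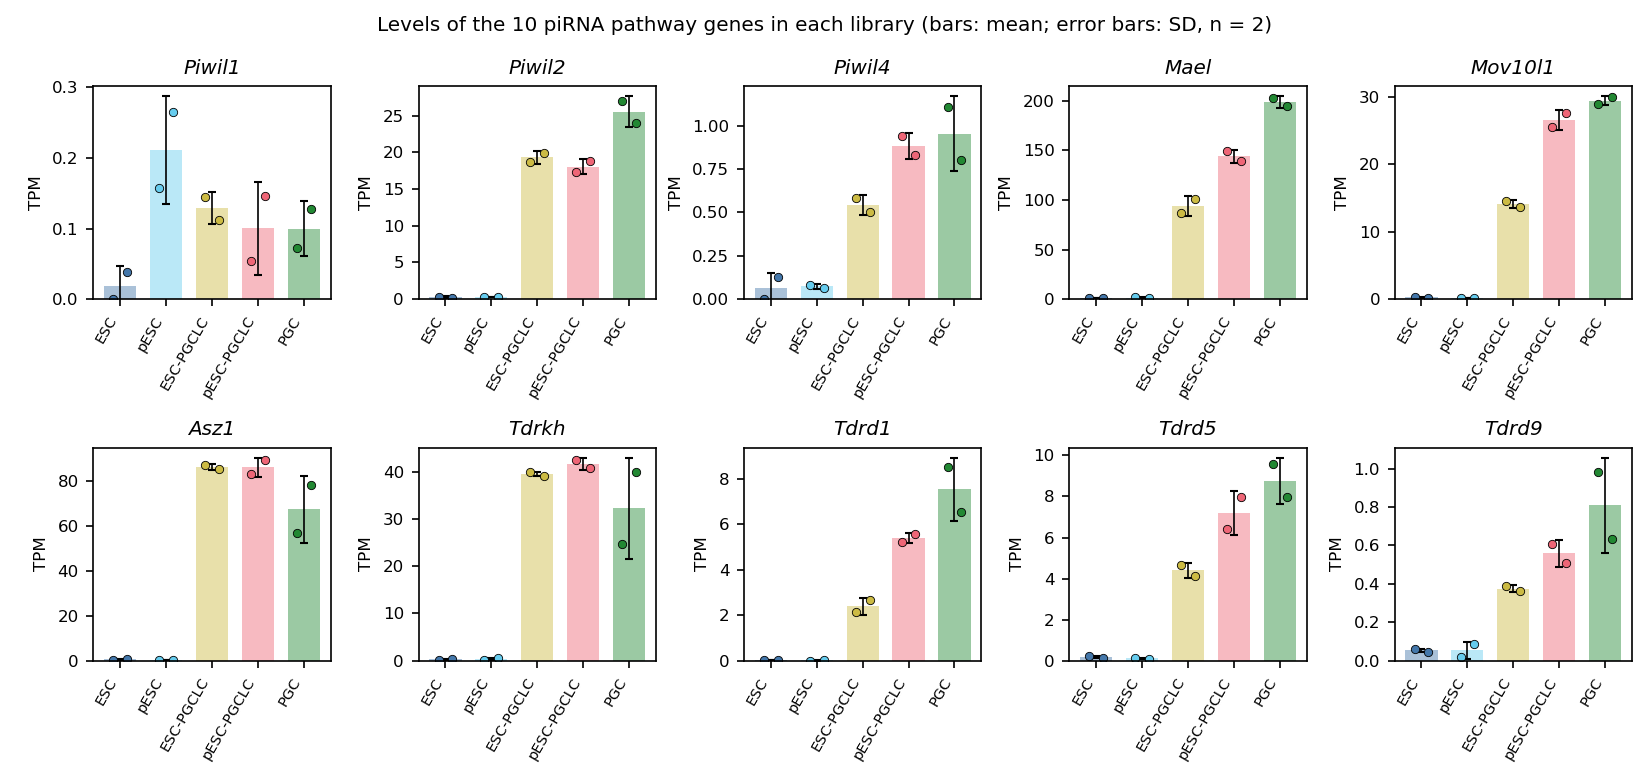
TPM of each of the 10 genes in the 5 groups, with points for single libraries, bars for the group mean and error bars for the SD (n = 2). Apart from Piwil1, the members are close to 0 in ESCs and pESCs, and the y axis differs between panels, from under 0.3 TPM for Piwil1 to 203 TPM for Mael.

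The change from stem cells to PGCLCs was tested with limma on log2(TPM + 1), two-sided, with Benjamini-Hochberg adjustment over the 27259 genes tested. Calls required an adjusted p below 0.05 and at minimum a 2-fold change on this scale, which understates changes of low genes. From ESCs to ESC-PGCLCs 7 of the 10 members rose and 0 fell, against 15.3% of all tested genes called higher. From pESCs to pESC-PGCLCs 7 of 10 rose and 0 fell, against 20.8% of all genes called higher. The median log2 change of the members was 2.86 in the ESC line and 3.4 in the pESC line, beside 0.05 and 0.22 over all genes. The members that rose were Piwil2, Mael, Mov10l1, Asz1, Tdrd1, Tdrd5 and Tdrkh in both lines. With no fold change minimum 9 of 10 members passed in each line, against 24.8% and 33.7% of all genes called higher. The members added were Piwil4 and Tdrd9, and their adjusted p did not stay under 0.05 in every refit, as given with each gene. All genes were split into 5681 higher and 1854 lower from pESCs to pESC-PGCLCs. Under median centring the split was 2280 higher and 5010 lower. For this setting the median was taken over widely expressed genes only, those reaching 1 TPM in every library. It moved the median change of all genes by -0.73, from 0.22 to -0.51. The members' call counts were 7 and 7 under that centring.

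Other markers moved with this change. The 8 gonadal somatic markers, among them Wt1, Lhx9 and Gata4, summed to 3.83 to 4.80 TPM in stem cell libraries, where Nr5a1 was at 0, to 18.1 and 23.0 TPM in ESC-PGCLCs, 43.3 and 49.6 TPM in pESC-PGCLCs and 84.6 and 93.4 TPM in PGCs. Amhr2 made up most of the stem cell sum, at means of 3.9 TPM in ESCs and 4.37 TPM in pESCs. Its mean was lower in ESC-PGCLCs (1.79 TPM) and higher in pESC-PGCLCs (9.09 TPM) and PGCs (20.4 TPM). The 6 markers of blood and endothelium, 3 of them haemoglobin genes, summed to 0.00621 to 1.91 TPM in stem cells, 133 and 146 TPM in ESC-PGCLCs, 919 and 1050 TPM in pESC-PGCLCs and 571 and 700 TPM in PGCs. Ptprc, a leukocyte marker of that list, was at 0 in ESC-PGCLCs and averaged 0.0663 TPM in pESC-PGCLCs and 0.103 TPM in PGCs. The 6 fibroblast markers summed to 0.128 to 0.436 TPM in stem cells and to 3.91 to 10.9 TPM in the other libraries. The part of these cell types in the members' change was not tested.

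**Figure D2:**
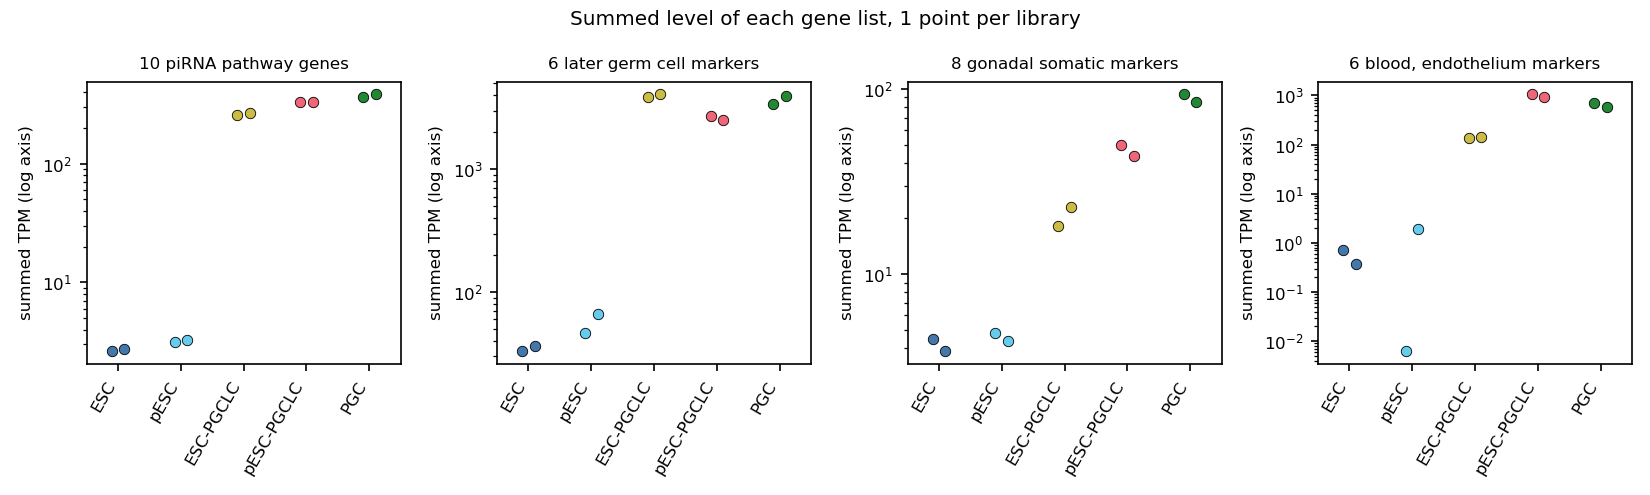
Summed TPM on a log axis, 1 point per library, for the 10 piRNA pathway genes and for markers of later germ cells, gonadal somatic cells and blood with endothelium. All 4 lists are lowest in the stem cell libraries, and the later germ cell list includes Mael and Ddx4.

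The PIWI genes differed widely in level. Gene positions are those of GENCODE M21 on GRCm38, the assembly of mm10. Piwil2 (chr14:70372477-70429383, minus strand) encodes the PIWI protein that starts the piRNA cycle in fetal germ cells. It had 0.349 and 0.191 TPM in ESCs, 0.258 and 0.262 TPM in pESCs, 18.7 and 20.0 TPM in ESC-PGCLCs, 17.4 and 18.8 TPM in pESC-PGCLCs, and 27.0 and 24.1 TPM in PGCs. The 6 PGCLC and PGC libraries stood far above the 4 stem cell libraries, the PGCLCs of the 2 lines overlapped, and both PGC libraries were above all PGCLC libraries. Mean TPM was 71.7-fold higher in ESC-PGCLCs than in ESCs, a log2 change of 4.00 ± 0.15 (SE) with an adjusted p of 1.96e-06 by limma. In the pESC line it was 69.5-fold higher, a log2 change of 3.92 ± 0.15 with an adjusted p of 3.78e-06 by limma.

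Piwil4 (chr9:14696230-14740733, minus strand) encodes the nuclear PIWI protein. Its level was 0 and 0.125 TPM in ESCs, 0.0845 and 0.0643 TPM in pESCs, 0.586 and 0.502 TPM in ESC-PGCLCs, 0.938 and 0.829 TPM in pESC-PGCLCs, and 1.11 and 0.802 TPM in PGCs. It was thus detected at 11 to 43 reads per PGCLC or PGC library, above the 0 to 8 reads of the stem cells, and stayed close to 1 TPM or below it. The log2 change was 0.54 ± 0.13 in the ESC line (adjusted p = 0.0104 by limma) and 0.81 ± 0.13 in the pESC line (adjusted p = 0.00155), both under 2-fold on the log2(TPM + 1) scale. With a pseudocount of 0.1 the same differences were 2.10 and 2.49 and were called. Under median centring the difference in the pESC line was 0.08 (adjusted p = 0.688 by limma), and without ESC replicate 1 that in the ESC line was 0.46 (adjusted p = 0.0811).

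Piwil1 (chr5:128702524-128755474, plus strand) encodes the PIWI protein of meiotic and postmeiotic male germ cells. It had 0 and 2 reads in ESCs, 6 and 10 in pESCs, 3 and 2 in ESC-PGCLCs, 2 and 6 in pESC-PGCLCs, and 2 and 5 in PGCs. All groups lay between 0 and 0.265 TPM, where 3 reads correspond to 0.0579 to 0.169 TPM, and neither the ESC line (log2 difference 0.15, adjusted p = 0.218 by limma) nor the pESC line (log2 difference -0.14, adjusted p = 0.25) passed the test. Other settings gave other answers at these few reads. In the ESC line voom gave 2.59 (adjusted p = 0.0232), and in the pESC line quantile normalization gave -0.32 (adjusted p = 0.0134 by limma) and median centring -0.87 (adjusted p = 0.00044). The value under median centring is mostly the shift of -0.73 that this setting gave every gene, so it says little about Piwil1.

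Mael, Mov10l1 and Asz1 encode partners of the PIWI proteins. Mael (chr1:166201201-166238747, minus strand), a nuage protein needed for transposon silencing in the germline, had 0.940 and 0.971 TPM in ESCs, 1.71 and 1.33 TPM in pESCs, 86.4 and 100.8 TPM in ESC-PGCLCs, 149 and 140 TPM in pESC-PGCLCs, and 203 and 195 TPM in PGCs. No 2 groups overlapped, and the order from ESCs to PGCs held in all libraries. Its mean rose 98.0-fold in the ESC line (log2 change 5.59 ± 0.14, adjusted p = 1.11e-06 by limma) and 94.9-fold in the pESC line (5.85 ± 0.14, adjusted p = 1.34e-06). Mael made up 35.9% of the members' summed mean TPM in ESC-PGCLCs, 43.6% in pESC-PGCLCs and 53.5% in PGCs.

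Mov10l1 (chr15:88982909-89055152, plus strand) encodes the RNA helicase that delivers piRNA precursors for processing. Its level was 0.363 and 0.241 TPM in ESCs, 0.190 and 0.221 TPM in pESCs, 14.5 and 13.6 TPM in ESC-PGCLCs, 25.5 and 27.6 TPM in pESC-PGCLCs, and 28.9 and 29.9 TPM in PGCs. The pESC-PGCLC libraries stood close to the PGC libraries and apart from the ESC-PGCLC libraries. The mean was 46.5-fold higher in ESC-PGCLCs than in ESCs (log2 change 3.53 ± 0.14, adjusted p = 2.48e-06 by limma) and 129-fold higher in pESC-PGCLCs than in pESCs (4.51 ± 0.14, adjusted p = 2.06e-06).

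Asz1 (chr6:18050964-18109061, minus strand) encodes a scaffold protein on the mitochondrial surface of germ cells. It had 0.460 and 0.654 TPM in ESCs, 0.402 and 0.449 TPM in pESCs, 87.1 and 84.9 TPM in ESC-PGCLCs, 82.9 and 88.9 TPM in pESC-PGCLCs, and 56.7 and 77.8 TPM in PGCs. The PGCLCs of the 2 lines overlapped, and both PGC libraries were below them. The log2 change was 5.81 ± 0.17 in the ESC line and 5.93 ± 0.17 in the pESC line, with adjusted p of 1.11e-06 and 1.89e-06 by limma, and ratios of means of 154 and 202.

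Of the 4 Tudor domain members, Tdrkh (chr3:94413273-94434668, plus strand) was the most abundant in the PGCLCs and PGCs. It encodes a mitochondrial protein that binds PIWI proteins during piRNA trimming. Its level was 0.212 and 0.301 TPM in ESCs, 0.167 and 0.507 TPM in pESCs, 39.9 and 39.2 TPM in ESC-PGCLCs, 42.6 and 40.7 TPM in pESC-PGCLCs, and 24.7 and 39.9 TPM in PGCs. PGC replicate 1 was low and PGC replicate 2 lay within the ESC-PGCLC range. The log2 change was 5.01 ± 0.23 in either line, with adjusted p of 3.78e-06 for the ESC line and 6.09e-06 for the pESC line by limma. Tdrkh overlaps the antisense gene Oaz3, and 32.8% of the 100-base stretches of its transcripts also occur there when strand is ignored, so reads of the pair cannot be fully told apart. Oaz3 was listed at 0.373 to 1.05 TPM in stem cell libraries and at 2.24 to 4.73 TPM in the others.

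Tdrd1 (chr19:56826209-56870012, plus strand) encodes a nuage protein that binds PIWIL2. It had 1 and 2 reads in ESCs and 0 and 1 reads in pESCs, at or below 0.0309 TPM and under the 3 reads taken as the floor, so no fold of the means is given. It rose to 2.12 and 2.66 TPM in ESC-PGCLCs and 5.24 and 5.56 TPM in pESC-PGCLCs, and PGCs had 8.53 and 6.55 TPM. The 3 groups did not overlap, with ESC-PGCLCs lowest. The log2 change from stem cells was 1.72 ± 0.18 (adjusted p = 0.000149 by limma) in the ESC line and 2.66 ± 0.18 (adjusted p = 2.89e-05) in the pESC line.

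Tdrd5 (chr1:156255296-156303664, minus strand) encodes a nuage protein that takes part in piRNA precursor handling. It had 0.219 and 0.146 TPM in ESCs, 0.131 and 0.0832 TPM in pESCs, 4.67 and 4.14 TPM in ESC-PGCLCs, 6.43 and 7.97 TPM in pESC-PGCLCs, and 9.56 and 7.96 TPM in PGCs. The pESC-PGCLC and PGC libraries overlapped by a narrow margin. The log2 change was 2.19 ± 0.18 (adjusted p = 3.96e-05 by limma) in the ESC line and 2.88 ± 0.18 (adjusted p = 1.83e-05) in the pESC line.

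Tdrd9 (chr12:111971559-112068854, plus strand) encodes a helicase with a Tudor domain that works with PIWIL4. As with Piwil4 its level was low, 0.0601 and 0.0466 TPM in ESCs, 0.0210 and 0.0852 TPM in pESCs, 0.388 and 0.363 TPM in ESC-PGCLCs, 0.607 and 0.510 TPM in pESC-PGCLCs, and 0.984 and 0.634 TPM in PGCs. It had 1 to 4 reads in stem cells and 8 to 34 in the other libraries. The log2 difference was 0.39 ± 0.12 (adjusted p = 0.0342 by limma) in the ESC line and 0.57 ± 0.12 (adjusted p = 0.00667) in the pESC line, both under 2-fold. Leaving out any 1 of the 4 libraries raised the adjusted p in the ESC line to between 0.0874 and 0.127, and the difference in the pESC line was -0.17 under median centring (adjusted p = 0.321 by limma).

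**Figure D3:**
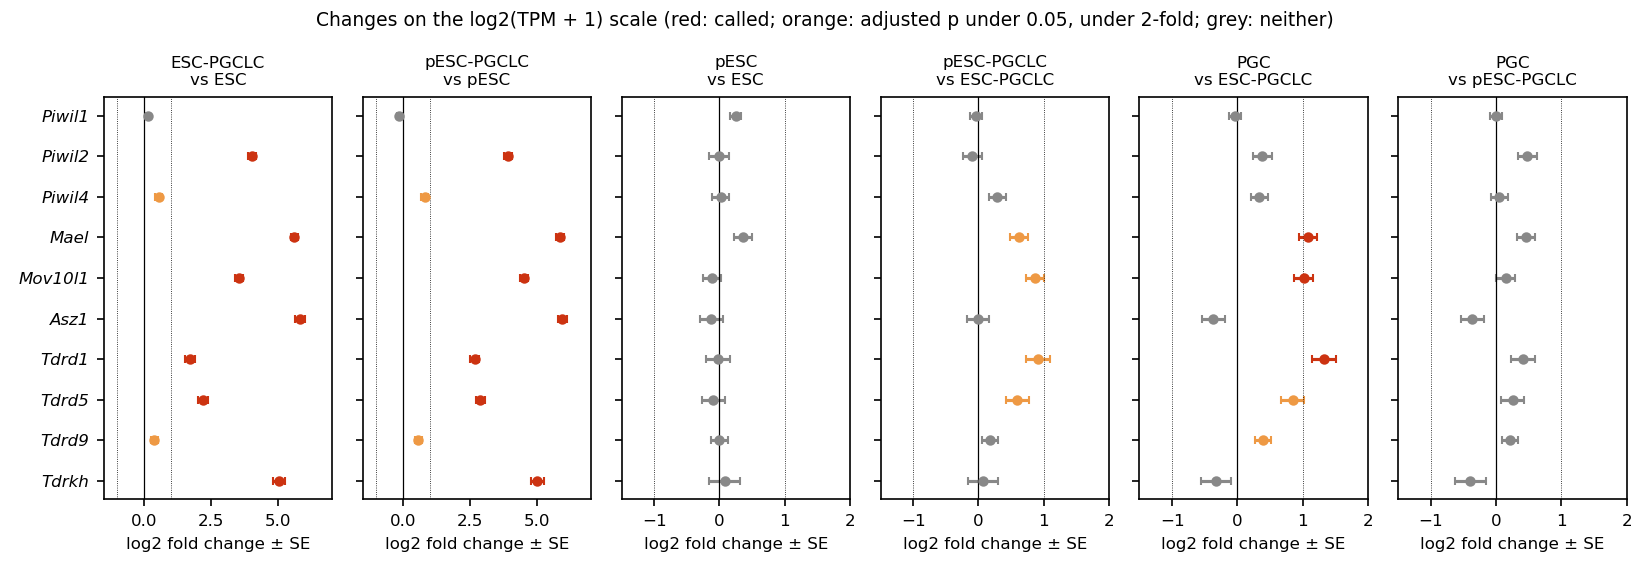
Log2 fold change on the log2(TPM + 1) scale with its SE (x axis) for each member (y axis) in 6 comparisons, with dotted lines at 2-fold and a wider x axis in the 2 comparisons of PGCLCs with stem cells. In all, 7 members are called in each of these 2 comparisons, and Mael, Mov10l1 and Tdrd1 in PGCs against ESC-PGCLCs.

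The stem cell lines were compared to ask whether parthenogenetic origin went with a difference before induction. No member was called between pESCs and ESCs (0 of 10 by limma), against 0.781% of all tested genes called in either direction. An unadjusted p under 0.05 was found for 4838 of the 27259 genes tested and for 2 members. These were Mael, which averaged 1.52 ± 0.27 TPM in the pESC and 0.955 ± 0.022 TPM in the ESC libraries (SD, n = 2, adjusted p = 0.225 by limma), and Piwil1, with 16 reads in pESCs and 2 in ESCs (adjusted p = 0.188 by limma). The members' log2 differences ranged from -0.12 to 0.36.

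Between the PGCLCs of the 2 lines 0 of 10 members were called by limma, against 13.4% of all genes called in either direction. With no fold change minimum 4 of 10 were higher in pESC-PGCLCs and 0 lower, against 18.1% of all genes called higher under that rule. These were Mov10l1 (log2 difference 0.87 ± 0.14, adjusted p = 0.0035), Tdrd1 (0.92 ± 0.18, adjusted p = 0.0091), Mael (0.62 ± 0.14, adjusted p = 0.0153) and Tdrd5 (0.60 ± 0.18, adjusted p = 0.0461), as limma gave them. In ratios of mean TPM these were 1.89, 2.26, 1.54 and 1.63. Piwil2, Asz1 and Tdrkh had ratios of 0.934, 0.999 and 1.05, with log2 differences of -0.09 ± 0.15, -0.003 ± 0.17 and 0.07 ± 0.23, and the libraries of the 2 lines overlapped for Piwil2 and Asz1. The median difference over the members was 0.23, beside 0.12 over all genes. Under median centring, which moved the median of all genes by -0.41, Mov10l1 kept an adjusted p of 0.0389 at a difference of 0.46, and Mael, Tdrd1 and Tdrd5 had adjusted p of 0.329, 0.0523 and 0.439. Gonadal somatic markers were at 43.3 and 49.6 TPM in pESC-PGCLCs against 18.1 and 23.0 TPM in ESC-PGCLCs, and blood and endothelium markers at 919 and 1050 TPM against 133 and 146 TPM. Their part in these differences and in the interaction was not tested.

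Whether the change from stem cells to PGCLCs itself differed between the lines was tested as an interaction. Of the 10 members 0 passed both thresholds, against 19.1% of all genes called in either direction. With no fold change minimum 2 of 10 had a larger change in the pESC line, against 18.5% of all genes called higher under that rule. For Mov10l1 the changes differed by 0.98 ± 0.20 (adjusted p = 0.0101 by limma) and for Tdrd1 by 0.94 ± 0.26 (adjusted p = 0.035 by limma). Both genes were near 0 in both stem cell lines, so these values mostly repeat their differences between the PGCLCs. All genes were split into 4236 called higher and 961 lower in this test, and into 1727 and 4062 under median centring, where Mov10l1 and Tdrd1 had differences of 0.24 and 0.20 with adjusted p of 0.357 and 0.53.

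PGCs were compared with each kind of PGCLC, and these comparisons share the PGC libraries. Against ESC-PGCLCs 3 of 10 members were higher in PGCs and 0 lower, beside 12.0% of all genes called higher. Tdrd1 was higher by 1.33 ± 0.18 on the log2 scale (adjusted p = 0.00265 by limma), Mael by 1.08 ± 0.14 (adjusted p = 0.00219) and Mov10l1 by 1.01 ± 0.14 (adjusted p = 0.00264). With no fold change minimum Tdrd5 (0.85 ± 0.18, adjusted p = 0.0107) and Tdrd9 (0.39 ± 0.12, adjusted p = 0.0467) were added, 5 of 10 beside 27.2% of all genes called higher. All genes were split into 3260 higher and 512 lower, and into 712 and 2003 under median centring, where 0 members were called and Tdrd9 stood at -0.22. Without ESC-PGCLC replicate 1, ESC-PGCLC replicate 2 or PGC replicate 2, 2 of these 3 members were called, Mael being lost without ESC-PGCLC replicate 1 (0.97) and Mov10l1 without the other libraries (0.97 and 0.99). The gonadal somatic markers were 84.6 to 93.4 TPM in PGCs and 18.1 to 23.0 TPM in ESC-PGCLCs, those of blood and endothelium 571 to 700 TPM and 133 to 146 TPM, and their part was not tested.

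Against pESC-PGCLCs 0 of 10 members were called in PGCs by limma, beside 3.67% of all genes called in either direction. An unadjusted p under 0.05 was found for 7955 of the 27259 genes tested and for 2 members. These were Piwil2 (25.6 ± 2.1 TPM in PGCs and 18.1 ± 1.0 TPM in pESC-PGCLCs, SD, n = 2, adjusted p = 0.0822 by limma) and Mael (199 ± 5.8 and 144 ± 6.6 TPM, adjusted p = 0.0769 by limma). The members' log2 differences ranged from -0.40 for Tdrkh to 0.48 for Piwil2. Asz1 and Tdrkh were the members with the lowest ratios of PGCs to pESC-PGCLCs, 0.783 and 0.775.

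The order of the members by mean TPM was Mael, Asz1, Tdrkh, Mov10l1, Piwil2, Tdrd5, Tdrd1, Piwil4, Tdrd9 and Piwil1 in both pESC-PGCLCs and PGCs. In ESC-PGCLCs Piwil2 stood before Mov10l1 (19.4 ± 0.9 and 14.1 ± 0.6 TPM, SD, n = 2) and the rest of the order was the same. The 4 most abundant members held 91.6%, 90.3% and 88.2% of the members' summed mean in ESC-PGCLCs, pESC-PGCLCs and PGCs. In PGCs Mov10l1 and Piwil2 did not overlap (28.9 and 29.9 TPM against 27.0 and 24.1 TPM), nor did Asz1 and Tdrkh, while Tdrd5 (9.56 and 7.96 TPM) and Tdrd1 (8.53 and 6.55 TPM) did.

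Other genes of the pathway were taken from a list of 31, of which 27 were tested. From ESCs to ESC-PGCLCs 12 of 27 rose and 6 fell, beside 15.3% of all genes called higher and 14.5% lower, with a median log2 change of 0.92. From pESCs to pESC-PGCLCs 14 rose and 3 fell, beside 20.8% higher and 6.80% lower, with a median of 1.11. Tdrd6, Tdrd10 and Tdrd15 were not analysed here, and Spocd1, a nuclear partner of PIWIL4, did not reach the level for testing, with group means of 0 to 0.0326 TPM. Of 12 genes for processing and loading of piRNAs, 5 rose in either line, 3 fell in the ESC line and 0 fell in the pESC line. Ddx4, the helicase that marks germ cell granules, had 2.63 and 3.35 TPM in ESCs, 1.51 and 3.10 TPM in pESCs, 260 and 281 TPM in ESC-PGCLCs, 186 and 191 TPM in pESC-PGCLCs, and 189 and 303 TPM in PGCs. It rose by 6.09 ± 0.28 (adjusted p = 3.72e-06 by limma) and 5.89 ± 0.28 (adjusted p = 6.4e-06) on the log2 scale in the ESC and pESC lines. Gtsf1, a zinc finger partner of PIWI proteins, already averaged 9.58 TPM in ESCs and 7.75 TPM in pESCs, and rose to 38.9 and 49.5 TPM in the PGCLCs (log2 changes 1.92 and 2.54). Pld6, the mitochondrial nuclease of piRNA processing, averaged 0.973 TPM in ESCs and 1.14 TPM in pESCs, against 2.74 and 2.86 TPM in the PGCLCs and 5.74 TPM in PGCs, and was not called in either line.

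**Figure D4:**
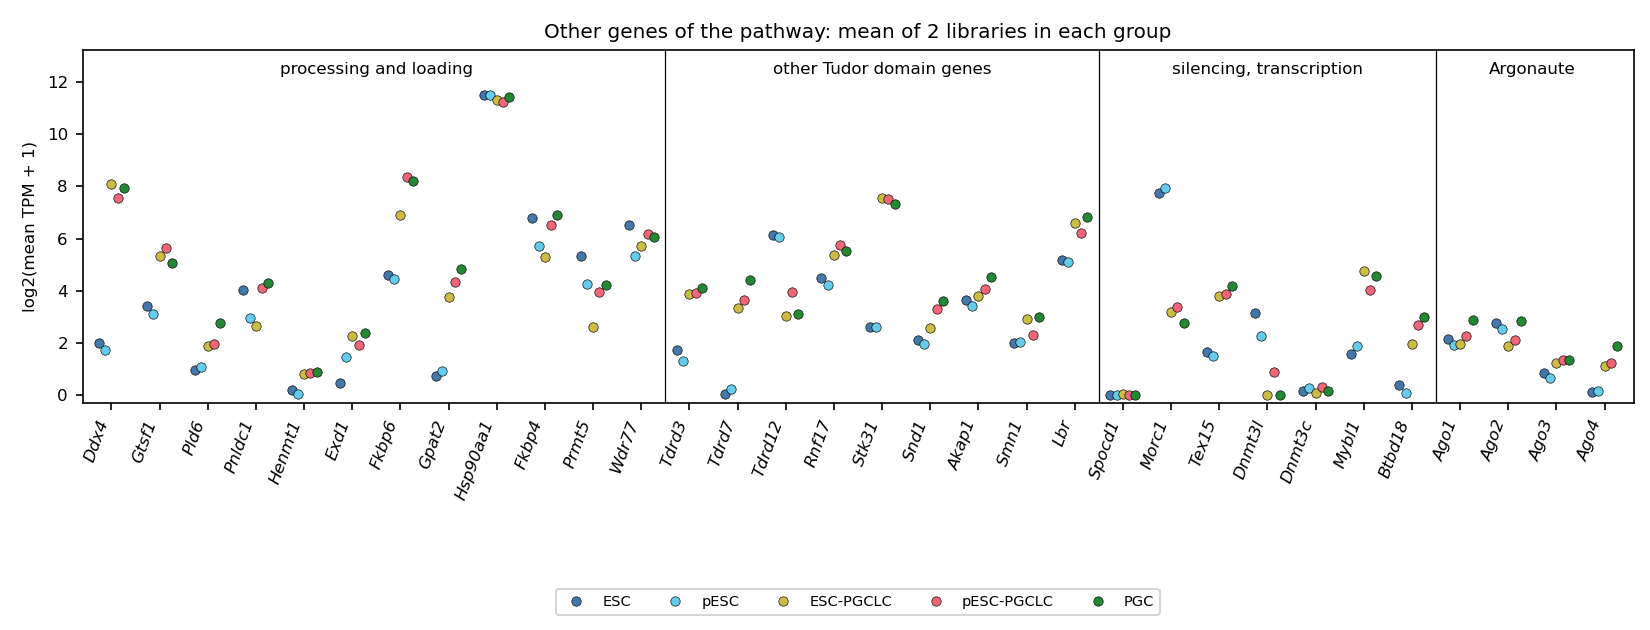
Group means as log2(mean TPM + 1) on the y axis for 32 further genes, in the lists for processing and loading, other Tudor domain genes, silencing and transcription, and Argonaute genes. Ddx4 and Stk31 are higher in the PGCLC and PGC groups, and Morc1 and Tdrd12 are higher in the stem cell groups.

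Of 9 further Tudor domain genes that were tested, 4 rose and 1 fell in the ESC line, where 15.3% of all genes were called higher and 14.5% lower. In the pESC line 6 rose and 1 fell, beside 20.8% of all genes called higher and 6.80% lower. Stk31, a germ cell protein with a Tudor and a kinase domain, had 5.26 and 4.83 TPM in ESCs and 4.25 and 5.85 TPM in pESCs. It reached 183 and 193 TPM in ESC-PGCLCs and 186 and 182 TPM in pESC-PGCLCs (log2 changes 4.96 ± 0.26 and 4.95 ± 0.26, adjusted p = 5.52e-06 and 8.7e-06 by limma), with 116 and 206 TPM in PGCs. The gene that fell was Tdrd12, a Tudor protein with a helicase domain, named after its values were seen, at means of 68.5 TPM in ESCs, 65.3 TPM in pESCs, 7.25 TPM in ESC-PGCLCs, 14.5 TPM in pESC-PGCLCs and 7.67 TPM in PGCs. Of 6 genes for silencing and for transcription of piRNA loci, 3 rose and 2 fell in either line, beside the same shares of all genes. Morc1, a nuclear factor of transposon silencing in male germ cells, went against the members, with 201 and 226 TPM in ESCs, 227 and 263 TPM in pESCs, and 4.68 to 9.41 TPM in the 6 other libraries (log2 changes -4.56 ± 0.18 and -4.57 ± 0.18, adjusted p = 2.49e-06 and 3.96e-06 by limma).

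Genes of the pathway list were also compared between the lines. Between pESCs and ESCs 0 of 27 genes were higher and 3 lower, beside 0.616% of all genes called lower. Wdr77 (log2 difference -1.21, adjusted p = 0.0322 by limma), Prmt5 (-1.09, adjusted p = 0.0484) and Fkbp4 (-1.08, adjusted p = 0.0322) were lower in pESCs, and none of these 3 was called without ESC replicate 1, ESC replicate 2 or pESC replicate 1 (adjusted p up to 0.292, 0.366 and 0.282). Of 12 alternatives only 5, 2 and 4 called Wdr77, Prmt5 and Fkbp4, and none of the 3 was called with the replicate block, the compared groups alone, quantile normalization or median centring. Prmt5 and Wdr77 form the enzyme that methylates arginines of PIWI proteins, and Fkbp4 is a chaperone partner. Between pESC-PGCLCs and ESC-PGCLCs 4 of 27 were higher and 0 lower, beside 10.3% of all genes called higher, and the largest differences were those of Pnldc1, the trimmer of piRNA ends (log2 difference 1.49, adjusted p = 0.0025 by limma), Fkbp6, a chaperone partner of piRNA loading (1.46, adjusted p = 0.00072), and Prmt5 (1.34, adjusted p = 0.00211, and 0.93 and not called under median centring). In the interaction, the change in the pESC line minus that in the ESC line, 7 of 27 were called higher and 0 lower. Over all genes 15.5% were called higher. The largest differences were those of Pnldc1 (2.55 ± 0.31, adjusted p = 0.0013 by limma), Prmt5 (2.43 ± 0.27, adjusted p = 0.000947) and Fkbp4 (2.31 ± 0.22, adjusted p = 0.00057). A higher value was not always a larger change. From stem cells to PGCLCs Prmt5 changed by -2.72 in the ESC line and -0.29 in the pESC line, and Dnmt3l by -3.17 and -1.40. Fkbp4 changed by -1.49 and 0.83, whereas Fkbp6 rose by 2.33 and 3.93. Pnldc1 had 16.2 and 14.5 TPM in ESCs and fell to 4.36 and 6.11 TPM in ESC-PGCLCs, whereas it had 6.0 and 7.72 TPM in pESCs and rose to 16.8 and 15.7 TPM in pESC-PGCLCs. In PGCs 8 of 27 were higher than in ESC-PGCLCs and 0 lower, beside 12.0% of all genes called higher. Pnldc1 (1.65), Fkbp4 (1.60) and Prmt5 (1.60) had the largest of these log2 differences, and under median centring Fkbp4 (0.99) and Prmt5 (0.99) were not called. In PGCs 0 of 27 were called against pESC-PGCLCs, beside 3.67% of all genes called in either direction. Here 11 of 27 had an unadjusted p under 0.05, beside 7955 of the 27259 genes tested.

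For the 2 PIWI genes that separated the groups, the most similar genes were sought by Pearson's r of log2(TPM + 1) over the 10 libraries, among 18028 genes. Closest to Piwil2 were Cntln (r = 0.999), Micu2 (r = 0.999) and BC022960 (r = 0.999), out of 267 genes with r of at least 0.99. Closest to Piwil4 were Tmem87a (r = 0.994), 2410141K09Rik (r = 0.992) and C330011M18Rik (r = 0.992), with 4 genes at or above 0.99. The libraries fall into 4 from stem cells and 6 from PGCLCs or PGCs, so these values mostly describe that separation. Within the 6 libraries r was 0.877, 0.883 and 0.801 for the genes closest to Piwil2 and 0.989, 0.976 and 0.949 for those closest to Piwil4.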

How the data were processed

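RNA-seq of 10 libraries, 2 in each of 5 groups, was used. By the study's methods the authors mapped clean reads to mm10 with Hisat2 and assigned them to genes with Feature-counts, and the submitters' processing notes also name Bowtie2, RSEM and R 3.4.2. The deposited values are TPM by gene symbol, with no other normalization, and each library sums to 1000000. The methods and the labels differ on library preparation, and neither states counting by strand. The members, the gene lists and the tests were chosen with earlier results of these data known. Symbols were matched to GENCODE M21 on GRCm38, with 35859 matched, 75 matching several genes and 132 unmatched, and 24 names had been turned into dates. TPM times exon length, divided by a factor per library, gave whole reads (within 0.05 read) for 95.1% to 95.3% of values above 0. These recovered reads served for depth, for floors of 3 reads, which cover counting error only, and for 1 alternative.

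Values were analysed as log2(TPM + 1) for the 27259 genes that reached 0.1 TPM in 2 or more libraries. In R 4.3.3, limma 3.58.1 fitted 5 group means with variances that follow the mean. With 2 libraries against 2, the smallest two-sided exact permutation p is 0.333, so p-values rest on this model. On simulated data of the same design the script was tested for recovery of known changes. Named genes were the members, Ddx4, Gtsf1 and Pld6, the 3 pathway genes with the largest called change in each comparison and a mean of at least 1 TPM, and the 3 genes most similar to Piwil2 and to Piwil4. Alternative settings were quantile normalization, median centring, 0.1 as pseudocount, a 1 TPM filter, no filter, the compared groups alone, replicate number as a block, no fold change minimum and each library left out, and, added after seeing the data, voom on recovered reads. Median centring took its reference level in each library from genes that reached 1 TPM in every library, not from all tested genes. Promoter windows came from RefSeq (GRCm38.p6), with 250 bases before each start used. Figures were drawn with Python 3.11.15 and matplotlib 3.10.9.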

Additional observations from a re-analysis of the deposited data

Results flagged for a closer look

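By limma's interaction test, the change from stem cells to PGCLCs differed between the lines in 2 of 10 members (adjusted p under 0.05). By that rule 6233 of 27259 genes were called in either direction, so the members' share was not above that of all genes. The 2-fold threshold was also passed by 0 of 10 members. The change of Mov10l1 was larger in the pESC line by 0.98 ± 0.20 on the log2(TPM + 1) scale (adjusted p = 0.0101), and in both pESC-PGCLC libraries it was higher than in both ESC-PGCLC libraries. The change of Tdrd1 was larger by 0.94 ± 0.26 (adjusted p = 0.035), from 0 to 2 reads per stem cell library. Between pESCs and ESCs Mov10l1 and Tdrd1 differed by -0.11 and -0.02. The interaction thus mostly repeats their differences between pESC-PGCLCs and ESC-PGCLCs, 0.87 and 0.92. Leaving out 1 library gave differences of 0.91 to 1.05 for Mov10l1 with adjusted p of 0.0113 to 0.0504, and of 0.83 to 1.06 for Tdrd1 with adjusted p of 0.0485 to 0.105. Under median centring the differences were 0.24 for Mov10l1 (adjusted p = 0.357) and 0.20 for Tdrd1 (adjusted p = 0.53). Groups of 2 libraries were too small to look for single libraries that stand apart.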

How the results depend on the processing

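The members called from stem cells to PGCLCs numbered 7 in either line under the main settings and 7 to 10 under all alternatives run. With a pseudocount of 0.1 they were 9 and 9, with no fold change minimum 9 and 9, and with voom 10 and 9. Between pESC-PGCLCs and ESC-PGCLCs 0 members became 4 with no fold change minimum, 1 with a pseudocount of 0.1 and 1 with voom (Tdrd1 in both), and 0 to 1 when 1 library was left out. In PGCs against ESC-PGCLCs 3 became 5 with no fold change minimum, 0 with quantile normalization, 0 with median centring and 1 with voom. In the interaction 0 became 2 with no fold change minimum, 1 with a pseudocount of 0.1 (Mov10l1), 1 with median centring and 1 with voom (Piwil1 in both), and 0 to 1 when 1 library was left out (1 without ESC replicate 2, ESC-PGCLC replicate 1, ESC-PGCLC replicate 2 or pESC-PGCLC replicate 1). Between pESCs and ESCs 0 became 1 with voom (Piwil1). Median centring turned Tdrd9 to -0.17 from pESCs to pESC-PGCLCs and to -0.22 in PGCs against ESC-PGCLCs. This setting moves every gene alike in a comparison, by -0.73 and -0.61 in these 2 and by -0.74 in the interaction. Genes near 0 TPM, such as Piwil1, thus mostly show that shift. For the 39 member differences with an adjusted p of 0.05 or more in the other 5 comparisons, 49 of 483 refits changed sign, 18 of them under median centring. The causes were not tested.

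Same-numbered replicates had correlations of their deviations from -0.0407 to 0.206 over 10 pairs of groups (median 0.0237), so the numbers were not taken to pair the libraries. With the replicate block, the counts of members called were 7, 7, 0, 0, 3, 0 and 0, as in the main settings. Of all genes, those called in pESCs against ESCs went from 213 to 402 with a filter of 1 TPM, 132 with no filter, 0 with the compared groups alone, 122 with quantile normalization, 78 with the replicate block, 459 with voom, and 2 to 962 when 1 library was left out. In PGCs against pESC-PGCLCs 1000 became 2438 with no fold change minimum, 0 with the compared groups alone, 1956 with voom and 15 to 2015 when 1 library was left out. In PGCs against ESC-PGCLCs 3772 became 8471 with no fold change minimum, 6140 with a pseudocount of 0.1 and 1906 with quantile normalization. From ESCs to ESC-PGCLCs 8122 became 12637 and from pESCs to pESC-PGCLCs 7535 became 12160 with no fold change minimum, and 12295 and 11317 with voom. Between the PGCLCs 3651 became 6496 with no fold change minimum, and the interaction went from 5197 to 3345 without ESC replicate 1. The split of pESC-PGCLCs against ESC-PGCLCs into 2812 higher and 839 lower became 1460 and 1891 under median centring and 1723 and 1330 under quantile normalization. With quantile normalization the splits were 3293 and 3033 from pESCs to pESC-PGCLCs, 927 and 979 in PGCs against ESC-PGCLCs, and 2228 and 1643 in the interaction. In pESCs against ESCs 45 higher and 168 lower became 161 and 30 under median centring and 65 and 57 under quantile normalization, and in PGCs against pESC-PGCLCs 564 and 436 became 293 and 821, and 297 and 593. Median centring left Piwil4 at 0.08 from pESCs to pESC-PGCLCs. Depth limits Piwil1 in all groups and Tdrd1, Tdrd9 and Piwil4 in stem cells.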

Other observations

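The Argonaute genes Ago1 to Ago4, which load microRNAs and are no part of the piRNA pathway, were measured beside the members. From stem cells to PGCLCs 1 of 4 rose in either line, beside 15.3% of all genes called higher in the ESC line and 20.8% in the pESC line. The median log2 changes were 0.09 and 0.53, beside 0.05 and 0.22 over all genes. The gene that rose was Ago4, named after its values were seen, with means of 0.0918 TPM in ESCs, 0.124 TPM in pESCs, 1.21 TPM in ESC-PGCLCs, 1.38 TPM in pESC-PGCLCs and 2.68 TPM in PGCs. Its log2 changes were 1.02 (adjusted p = 0.00158 by limma) and 1.08 (adjusted p = 0.0013 by limma).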
